A study of Mus musculus with 9 samples.

Results

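Genes of DNA replication and mitosis were followed in mouse heart by single-nucleus RNA sequencing (sNuc-seq), which counts transcripts as unique molecular identifiers (UMIs) in nuclei that each carry a barcode. They are a list of 39 named genes among the 23747 genes of the tables, matched by symbol, and all 39 had at least 1 UMI in each of the 9 samples. By known role, 26 of the 39 act in mitosis. The other 13, called replication and repair genes here, include the chromatin genes Ezh2 and Atad2. The hearts came from C57BL/6 mice supplied at 8 weeks of age, 3 mice in each of 3 groups. All mice had 7 days of gavage and then chest surgery. Sham mice received the vehicle, 0.5% sodium carboxymethyl cellulose, and no coronary artery was tied. I/R mice received the same vehicle, and the left anterior descending artery was tied for 30 min and reopened for 24 h. SBP mice received Shexiang Baoxin Pill, written as MUSKARDIA in the labels, in this vehicle before the same ischemia and reperfusion. No group received SBP without ischemia, the tissue was taken from below the ligature, and 24 h was the single time point, so later and remote parts of the response were not measured.

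A dividing cell copies its DNA in S phase and separates the copies in mitosis. The Mcm proteins unwind DNA ahead of the polymerases, and ribonucleotide reductase, built from Rrm1 and Rrm2, supplies the nucleotides. In mitosis, condensins and Top2a shape the chromosomes, kinesins build the spindle, kinetochore proteins attach chromosomes to it, and Prc1, Anln and Ect2 act when the cell divides. Most of these genes are transcribed in phases, so that their RNA is high in cycling cells. Adult cardiomyocytes rarely divide, whereas fibroblasts and macrophages of an injured heart are known to do so. An RNA level is not a count of divisions.

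The phases of transcription are tied to short promoter elements. The CHR element is known from genes that peak late in the cycle and E2F sites from genes that peak at its start, while the CCAAT box is common to both. The words searched, on both strands, were TTTGAA and TTCGAA for CHR, CCAAT for the CCAAT box, and TTTCCCGC, TTTCGCGC, TTTGCCGC and TTTGGCGC for E2F. RefSeq windows of 300 bases, 250 before the start of the gene and 50 after it, matched 35 of the 39 genes on GRCm38.p6, the build of the files. Atad2, Ccna2, Mcm4 and Tpx2 had no window. CHR words stood in 20 of 24 mitosis genes (83.33%) and in 1 of 11 replication and repair genes (9.091%, Neil3), against 21.66% of 27025 genes. E2F words showed the opposite order, with 6 of 11 replication and repair genes (54.55%) and 4 of 24 mitosis genes (16.67%), namely Cdk1, Kif15, Ncapg and Ncapg2, against 2.605% of all genes. CCAAT stood in 27 of 35 members (77.14%), against 41.06% of all genes. Both CHR and CCAAT were present in 15 of 35 members (42.86%), against 9.654% of all genes. A match is a run of letters and no proof of binding.

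The 6 windows below are those of the replication genes Pola1 and Ezh2 and the mitosis genes Ncapg2 and Diaph3, for each of these roles the members with the most UMIs in myeloid cells, and of Top2a and Mcm5, added after their values were seen because the results turn on them. They are written 5′ to 3′ on the strand of the gene, and capitals mark the searched words on either strand. Pola1 lies at chrX:93632106-93632405 on the minus strand. Ezh2 lies at chr6:47594981-47595280 (minus) and Diaph3 at chr14:87141175-87141474 (minus). Ncapg2 lies at chr12:116405186-116405485 (plus) and holds a CHR word and a pair of E2F words. Top2a lies at chr11:99024140-99024439 (minus), with CHR words at 4 positions and CCAAT at 6. Mcm5 lies at chr8:75109259-75109558 (plus), where the E2F words of both strands overlap and stand as 1 run of capitals. TTCGAA reads the same on both strands. Diaph3 has CCAAT words and neither of the other elements.
Pola1: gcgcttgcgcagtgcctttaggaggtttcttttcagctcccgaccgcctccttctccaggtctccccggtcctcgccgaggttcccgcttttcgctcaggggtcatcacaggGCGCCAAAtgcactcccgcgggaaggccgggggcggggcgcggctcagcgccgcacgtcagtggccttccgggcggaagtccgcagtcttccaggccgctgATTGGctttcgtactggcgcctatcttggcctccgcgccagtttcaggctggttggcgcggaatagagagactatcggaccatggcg
Ezh2: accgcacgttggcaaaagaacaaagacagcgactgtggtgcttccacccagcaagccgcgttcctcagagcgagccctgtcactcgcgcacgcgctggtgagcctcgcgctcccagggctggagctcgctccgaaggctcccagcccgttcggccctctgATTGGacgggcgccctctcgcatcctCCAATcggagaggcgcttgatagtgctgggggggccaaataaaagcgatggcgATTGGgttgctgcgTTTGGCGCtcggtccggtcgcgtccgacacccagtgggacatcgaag
Ncapg2: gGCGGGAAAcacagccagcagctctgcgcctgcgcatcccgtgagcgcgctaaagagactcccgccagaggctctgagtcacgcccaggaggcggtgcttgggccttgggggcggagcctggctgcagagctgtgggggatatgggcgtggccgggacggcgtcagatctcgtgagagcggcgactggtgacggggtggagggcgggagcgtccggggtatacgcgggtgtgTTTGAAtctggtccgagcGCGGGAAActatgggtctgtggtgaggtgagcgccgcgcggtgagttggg
Diaph3: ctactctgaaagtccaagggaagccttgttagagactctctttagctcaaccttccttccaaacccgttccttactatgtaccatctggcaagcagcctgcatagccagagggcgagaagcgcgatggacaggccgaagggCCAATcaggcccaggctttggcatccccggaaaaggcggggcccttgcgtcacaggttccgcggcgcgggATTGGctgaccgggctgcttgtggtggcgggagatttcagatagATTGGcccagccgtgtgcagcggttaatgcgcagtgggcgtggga
Top2a: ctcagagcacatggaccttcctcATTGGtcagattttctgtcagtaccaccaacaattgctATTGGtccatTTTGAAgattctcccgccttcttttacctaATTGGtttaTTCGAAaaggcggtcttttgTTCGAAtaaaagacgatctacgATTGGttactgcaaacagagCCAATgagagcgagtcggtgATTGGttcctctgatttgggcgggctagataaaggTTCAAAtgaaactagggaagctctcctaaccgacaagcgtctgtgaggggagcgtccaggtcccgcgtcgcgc
Mcm5: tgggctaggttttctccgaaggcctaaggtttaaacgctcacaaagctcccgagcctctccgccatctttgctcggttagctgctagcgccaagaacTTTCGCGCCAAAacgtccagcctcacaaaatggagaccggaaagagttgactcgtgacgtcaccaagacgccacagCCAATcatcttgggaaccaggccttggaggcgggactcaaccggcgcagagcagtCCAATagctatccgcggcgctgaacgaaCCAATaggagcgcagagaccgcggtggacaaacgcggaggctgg

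The 9 libraries held 49171 nuclei, 4576 to 6418 each, and 10329520 to 18205985 UMIs each, with a median of 1540 to 2031 UMIs per nucleus. After 85 nuclei marked as doublets were removed, 49086 nuclei in 16 clusters were named from marker genes as cardiomyocyte-like, endothelial-like, fibroblast-like, myeloid-like (with dendritic-like and neutrophil-like clusters), T cell-like and B cell-like, and are called by those types from here on. A cluster of 285 nuclei led by Cadm2 carried Schwann and smooth muscle markers together and stayed unnamed. The clustering left out 157 cell cycle genes, all members among them. Of 48881 distinct barcodes, 290 occurred in more than 1 library, 4 to 14 for each of 36 pairs. Replicates differed from each other by more than counting noise (chi-square per degree of freedom 16.9 to 79.1).

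The members were sparse. Their UMIs over all nuclei ranged from 280 for Ccna2 to 10521 for Pola1. The mitotic kinases and cyclins had few, with 550 for Cdk1, 341 for Ccnb1 and 539 for Melk besides Ccna2. Genes of chromosome structure had 2796 for Top2a, 2024 for Mki67, 3084 for Ncapg2, 2088 for Smc2 and 680 for Ncapg. Kinetochore and checkpoint genes ranged from 532 for Bub1 to 2511 for Knl1, spindle genes from 504 for Hmmr to 2178 for Kif15, and cytokinesis genes from 1067 for Ect2 to 6503 for Diaph3. Among genes of repair and S phase chromatin the range was 1176 for Brca1 to 7380 for Ezh2, and among fork and nucleotide genes 287 for Rrm2 to 10521 for Pola1. These are totals that set the precision, not levels per transcript length. On GRCm38 the 39 genes lie on 18 chromosomes. Of these, 15 are overlapped by an annotated gene on the other strand and 10 by a gene on the same strand, and reads of such overlaps may be shared.

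Levels differed between cell types and, in fibroblasts and endothelial cells, between sham and injured mice. In sham hearts the 26 mitosis genes summed to 555 ± 333 CPM (CPM, UMIs scaled to equal totals; SD, n = 3 mice) in myeloid cells and 60.7 ± 21.9 CPM in fibroblasts. Endothelial cells had 75.2 ± 10.7 CPM and cardiomyocytes 33.8 ± 10.2 CPM. In I/R hearts the sum in fibroblasts was 1035 ± 433 CPM, and the lowest I/R mouse (623) stood above the highest sham mouse (85.7). In myeloid cells it was 643 ± 435 CPM, and the I/R mice (383 to 1146) overlapped the sham mice (332 to 937). The SBP mice had 787 ± 359 CPM in fibroblasts and 541 ± 151 CPM in myeloid cells. In endothelial cells the sum was 185 ± 78.2 CPM in I/R (114 to 269) and 126 ± 22.6 CPM in SBP (99.5 to 139). Both ranges lay above that of the sham mice there (62.9 to 82.0). Myeloid cells gave 47.4% of the mitosis UMIs of the sham hearts, 34.0% of those of I/R hearts and 23.1% of those of SBP hearts. By mouse the share was 32.3%, 56.0% and 42.8% in sham, 42.7%, 22.7% and 21.2% in I/R, and 21.8%, 25.2% and 19.3% in SBP. Without I/R replicate 1, which had 13000 of the 22494 mitosis UMIs of I/R hearts, the I/R share was 22.0%, within the range of the SBP mice. Fibroblasts gave 13.7%, 53.1% and 65.1%, and 63.9% in I/R without that mouse.

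**Figure D1:**
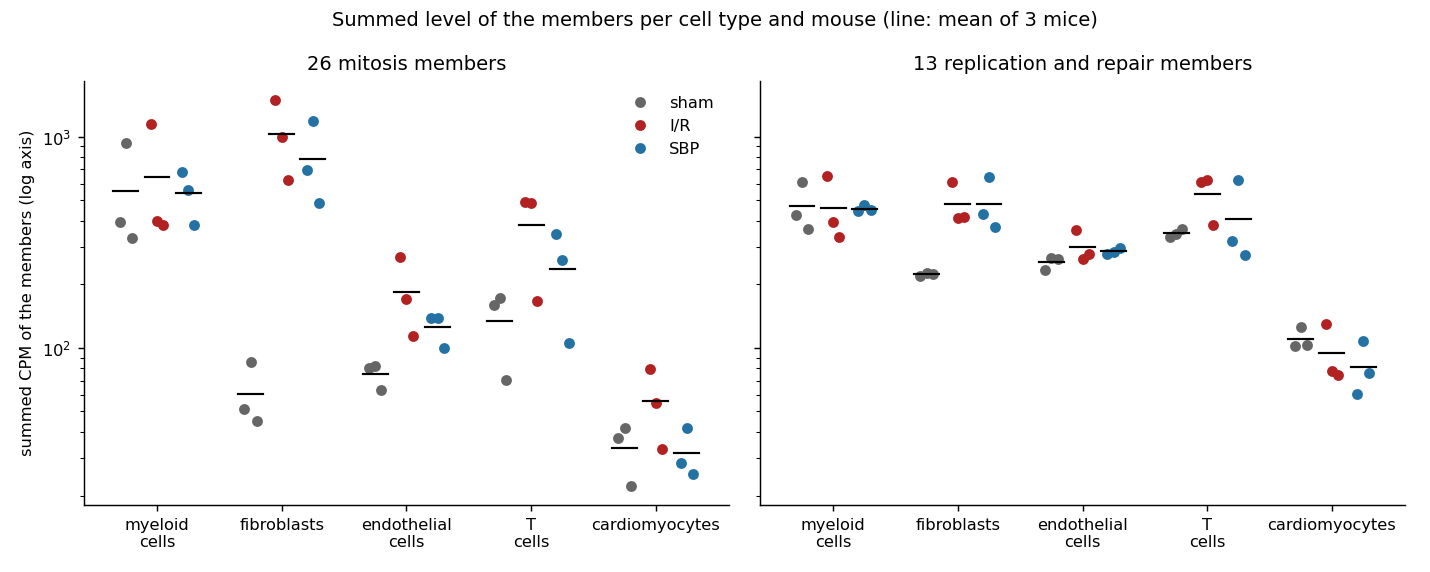
Summed CPM of the 26 mitosis genes (left) and the 13 replication and repair genes (right) per cell type on a log axis, with a point for each mouse and a line at the mean of 3 mice. In fibroblasts every I/R mouse (623 to 1487 CPM for mitosis genes) is above every sham mouse (45.0 to 85.7 CPM), while the myeloid groups overlap. For mitosis genes in endothelial cells every I/R mouse is also above every sham mouse.

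The 13 replication and repair genes moved over a smaller range. They summed to 224 ± 3.49 CPM in sham fibroblasts, 479 ± 115 CPM in I/R and 481 ± 142 CPM in SBP. Myeloid cells had 468 ± 126, 460 ± 166 and 457 ± 14.7 CPM. Cardiomyocytes had 110 ± 13.5, 94.3 ± 31.4 and 81.5 ± 24.1 CPM, and their groups overlapped. Most of the 1816 replication and repair UMIs of sham fibroblasts were of Pola1 (732), Ezh2 (355) and Atad2 (305). In sham cardiomyocytes Pola1 (997) and Ezh2 (797) gave most of 2415. The sums therefore say little of the rarer genes, whose changes in fibroblasts are given below.

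In whole hearts, with all nuclei of a mouse summed, the mitosis genes rose after I/R and most replication genes did not pass the test. A gene was called at an adjusted p of at most 0.05 (limma, Benjamini-Hochberg over all genes tested) and a log2 fold change over 0.25 in size. Of the 39 members, 25 were called higher and 0 lower in I/R than in sham, where 5.98% of 16044 genes were called higher and 5.39% lower. The 25 were 23 of the 26 mitosis genes and 2 of the 13 others, Brca1 and Rrm1. The median log2 fold change of the members was 1.74, against -0.03 over all genes tested. The groups did not overlap, with I/R higher, for 33 members, against 14.6% of all genes. All 39 members passed the filter on low values, 31 of them in all 3 sham mice as well, and 18 of these 31 were called. In a sum over the whole heart, a change in the share of a cell type and a change of RNA per cell cannot be told apart.

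Top2a, the topoisomerase that untangles sister chromatids (chr11:98992943-99024189, minus strand), stood at 3.43, 8.17 and 1.89 CPM in the sham mice, 50.35, 28.05 and 16.83 CPM in the I/R mice, and 19.21, 28.36 and 13.88 CPM in the SBP mice. Each injured mouse was above each sham mouse, and the I/R mice spread widely. The log2 fold change in I/R was 2.61 ± 0.47 (SE, limma adjusted p = 0.0123). Mki67, which coats mitotic chromosomes and is the usual marker of cycling cells, had 2.70, 5.42 and 2.77 CPM in sham, 34.58, 27.43 and 10.23 CPM in I/R, and 14.37, 18 and 9.13 CPM in SBP (2.33 ± 0.42 in I/R, limma adjusted p = 0.0123). The sham mice were again apart from the injured mice, the I/R and SBP mice overlapped, and I/R replicate 3 was the lowest of the I/R mice.

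The largest changes among the members called were those of Diaph3, Top2a and Cenpe. Diaph3, a formin that assembles actin and acts in cytokinesis, had 6.75, 13.60 and 6.68 CPM in sham, 97.80, 64.01 and 32.86 CPM in I/R, and 55.29, 86.22 and 36.37 CPM in SBP (2.66 ± 0.43 in I/R, limma adjusted p = 0.00786). Cenpe, the kinesin of the kinetochore, had 1.56, 4.19 and 1.64 CPM in sham, 30.40, 17.05 and 8.87 CPM in I/R, and 13.77, 13.55 and 6.57 CPM in SBP (2.44 ± 0.45 in I/R, limma adjusted p = 0.0124).

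The mitotic kinase and its cyclin rested on few UMIs and passed the test. Cdk1 had 0.31, 0.80 and 0.44 CPM in sham, 9.77, 3.23 and 3.92 CPM in I/R, and 4.24, 6.83 and 3.51 CPM in SBP (2.02 ± 0.35 in I/R, limma adjusted p = 0.0108). Its partner Ccnb1 had 0.10, 1.16 and 0.44 CPM in sham, 7.13, 2.61 and 2.16 CPM in I/R, and 2.27, 3.19 and 1.24 CPM in SBP (1.59 ± 0.39 in I/R, limma adjusted p = 0.0329). Both sets of I/R values lay above the sham values. Neither gene reached the filter on low values in all 3 sham mice, so both were tested through the injured mice.

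The replication genes Rrm2 and Mcm5 did not pass. Rrm2, the small subunit of ribonucleotide reductase, had 0.52, 1.01 and 0.50 CPM in sham, 4.91, 1.38 and 2.22 CPM in I/R, and 1.97, 3.08 and 1.90 CPM in SBP (1.10 ± 0.32 in I/R, limma adjusted p = 0.0513). Mcm5, a subunit of the replicative helicase, had 2.18, 3.11 and 0.88 CPM in sham, 10.29, 5.98 and 3.13 CPM in I/R, and 5.67, 5.98 and 4.16 CPM in SBP (1.24 ± 0.38 in I/R, limma adjusted p = 0.0646). Their I/R mice did not overlap the sham mice, although for Mcm5 the lowest I/R mouse and the highest sham mouse were close. Pola1, the catalytic subunit of the primase polymerase, and Ezh2, which methylates histone H3, were close to level, with log2 fold changes of 0.14 (limma adjusted p = 0.683) and 0.13 (limma adjusted p = 0.631).

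The count of 25 depended on single mice. It was 4 without sham replicate 3 (Prc1, Cdk1, Diaph3 and Hmmr), 11 without sham replicate 1 and 16 without I/R replicate 2. The share of all genes called in each such fit is not given, so these falls need not be particular to the members. SBP hearts against sham hearts gave 9 members higher, where 1.63% of genes were called higher. Diaph3 (2.57, limma adjusted p = 0.0190), Kif15, a spindle kinesin (2.09, limma adjusted p = 0.0438), and Top2a (2.08, limma adjusted p = 0.0460) had the largest log2 fold changes, and the others were Anln, Ncapg, Hmmr, Cdk1, Tpx2 and Prc1. Of the 9, 6 reached the filter in all 3 sham mice, and Ncapg, Hmmr and Cdk1 entered through the injured mice. The 9 calls fell to 0 without sham replicate 1, sham replicate 3, SBP replicate 1 or SBP replicate 2 and to 3 without SBP replicate 3, and rose to 24 without I/R replicate 1 and 16 without I/R replicate 3, which share the estimate of the spread.

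In fibroblasts nearly all members rose after I/R. Of 39 members, 38 were called higher and 0 lower, where 6.99% of 13076 genes were called higher and 4.6% lower. The exception was Pola1. The median log2 fold change was 3.66 for the mitosis genes and 1.21 for the replication and repair genes, and 3.38 for all members against 0.02 over all genes tested. All 39 had every I/R mouse above every sham mouse, against 15.2% of all genes. The filter on low values mattered here, since 27 of the 39 did not reach it in all 3 sham mice and were tested through the injured mice. The other 12 did, 11 of these were called, and the median log2 fold change of the 12 was 1.24. They were the mitosis genes Cenpf, Diaph3, Ncapg2 and Smc2 and the replication and repair genes Brca2, Brip1, Atad2, Ezh2, Rrm1, Mcm4, Mcm6 and Pola1. Most mitosis genes thus entered through the injured mice and most replication and repair genes did not, so the medians of these classes are not on like terms.

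Top2a in fibroblasts stood at 1.77, 3.92 and 0 CPM in sham, 116.57, 78.22 and 47.24 CPM in I/R, and 49.17, 88.62 and 36.94 CPM in SBP. Sham fibroblasts had almost none of its RNA and each injured mouse had many UMIs of it. The log2 fold change was 5.00 ± 0.57 in I/R (limma adjusted p = 0.000722) and 4.54 in SBP (limma adjusted p = 0.00205). Mki67 had 0.44, 1.43 and 1.03 CPM in sham, 59.85, 61.50 and 26.14 CPM in I/R, and 32.21, 44.31 and 20.27 CPM in SBP (4.61 ± 0.37 in I/R, limma adjusted p = 5.58e-05). Its I/R and SBP mice overlapped each other and neither overlapped sham. Neither Top2a nor Mki67 reached the filter in all 3 sham mice, so both were tested through the injured mice.

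Prc1, which bundles the microtubules between the separating chromosomes, had 0.44, 0.36 and 0 CPM in sham, 50.68, 27.21 and 30.93 CPM in I/R, and 22.04, 41.18 and 17.70 CPM in SBP (4.85 ± 0.34 in I/R, limma adjusted p = 1.76e-05, and 4.39 in SBP, limma adjusted p = 4.1e-05). All 3 sham mice together gave 2 UMIs of it and the I/R mice 435. The ratio of the levels was 152, and counting error alone put it between 41.8 and 1257 (95% interval). Knl1, the scaffold of the kinetochore, had 2.21, 1.43 and 1.03 CPM in sham, 91.47, 69.43 and 42.68 CPM in I/R, and 41.25, 74.66 and 26.94 CPM in SBP (4.71 ± 0.37 in I/R, limma adjusted p = 5.58e-05). Bub1, a kinase of the spindle checkpoint, rested on 1 UMI over the sham mice against 164 over the I/R mice, 114 times the level (95% interval 20.3 to 4547). Cdk1 rested on 3 against 197, which is 45.8 times (95% interval 15.5 to 224). For genes this low, the fitted fold change depends on the 1 CPM added before the log. Prc1, Knl1, Bub1 and Cdk1 did not reach the filter in all 3 sham mice and were tested through the injured mice.

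Diaph3 had 4.42, 13.19 and 6.85 CPM in sham, 259.69, 191.58 and 111.26 CPM in I/R, and 152.30, 290.68 and 90.31 CPM in SBP (4.4 ± 0.48 in I/R, limma adjusted p = 0.000611, and 4.24 in SBP, limma adjusted p = 0.00124). The groups of injured mice spread over the same range.

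Of the 13 replication and repair genes, 12 were called higher. Among these, Neil3, Brca1, Mcm5, Mcm3 and Rrm2 did not reach the filter in all 3 sham mice and were tested through the injured mice. Neil3, a DNA glycosylase, and Brca1, a repair factor, had log2 fold changes of 3.83 (limma adjusted p = 0.000777) and 3.38 (limma adjusted p = 0.00142). The helicase subunits had 2.20 for Mcm5 (limma adjusted p = 0.0213), 1.10 for Mcm3, 1.10 for Mcm4 and 0.99 for Mcm6. Mcm5 had 3.54, 1.43 and 0.34 CPM in sham, 17.38, 9.35 and 6.47 CPM in I/R, and 13.85, 13.25 and 4.36 CPM in SBP. Rrm2 and Rrm1 had 2.12 and 1.50. The repair helicase Brip1 and the repair protein Brca2 had 1.21 and 1.79, the chromatin genes Ezh2 and Atad2 had 0.80 (limma adjusted p = 0.0174) and 0.91, and all of these were called.

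Pola1 had 87.98, 89.46 and 96.60 CPM in sham, 146.74, 96.64 and 108.62 CPM in I/R, and 116.98, 171.71 and 119.81 CPM in SBP. Its lowest I/R mouse and highest sham mouse nearly met (0.34 ± 0.19 in I/R, limma adjusted p = 0.298).

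Other measures moved with the fibroblast result. The 6 cardiomyocyte markers, genes that fibroblasts should lack, summed to 4384 to 5434 CPM in sham fibroblasts and 1533 to 2343 CPM in I/R, and all 6 were called lower. The 8 myeloid markers, none of them at 0, summed to 104 to 121 CPM in sham, 188 to 313 CPM in I/R and 125 to 165 CPM in SBP, with 4 of 8 called higher (Itgam, Csf3r, Cd68 and C1qb). In myeloid cells themselves the same markers summed to 3750 to 6230 CPM in I/R. The 6 fibroblast markers summed to 3799 to 5640 CPM in sham and 5529 to 7183 CPM in I/R, and Col1a1 and Col1a2 were called higher. The neutrophil markers, none of them at 0, summed to 10.4 to 40.8 CPM in sham, 65.4 to 273 CPM in I/R and 47.3 to 122 CPM in SBP, with Csf3r and Cxcr2 of 4 tested called higher. The mesothelial markers summed to 0.328 to 3.51 CPM in sham, where Msln and Upk3b were at 0, 4.52 to 23.4 CPM in I/R and 3.37 to 12.5 CPM in SBP, and Wt1, the single one tested, was called higher. The part of free RNA, of other cells and of depth in the result was not tested.

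**Figure D2:**
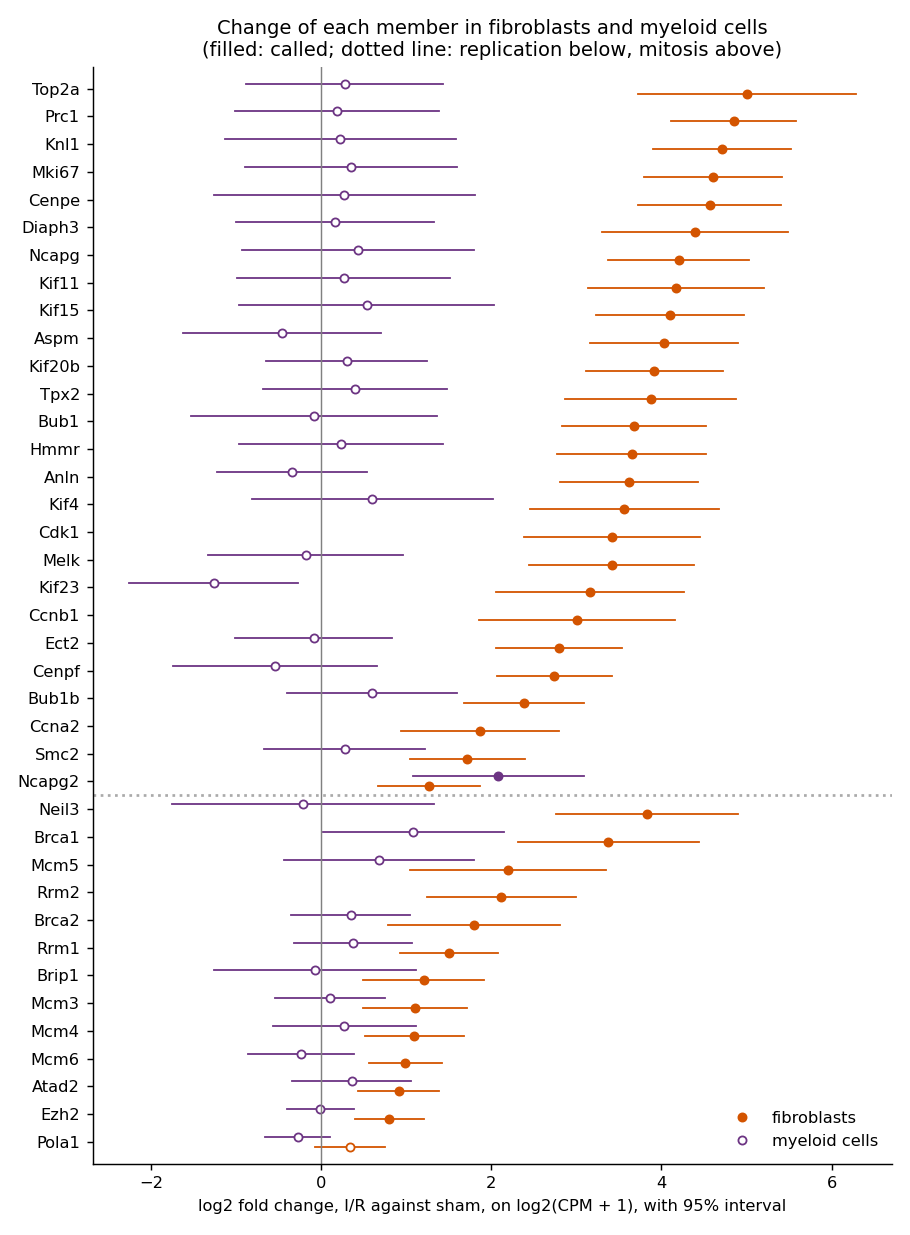
Log2 fold change of each member in I/R against sham with its 95% interval, in fibroblasts and in myeloid cells, with filled points for called genes and the replication and repair genes below the dotted line. Fibroblast points run from 0.34 (Pola1) to 5.00 (Top2a), while in myeloid cells 1 gene (Ncapg2) is called.

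The fibroblast change sat largely in a single cluster. Tnc, which encodes the matrix protein tenascin, led a fibroblast cluster with 1017 nuclei from I/R mice, 724 from SBP mice and 6 from sham mice. It made up 22.1% of I/R fibroblasts and held 90.5% of their mitosis UMIs and 63.1% of their replication and repair UMIs. In SBP it made up 14.3% and held 89.2% and 61.6%. These shares pool the nuclei of the mice of a group. By mouse the cluster had 461 of 1449, 411 of 1448 and 145 of 1700 fibroblast nuclei in I/R. In SBP it had 270 of 1703, 295 of 1483 and 159 of 1883, so the groups overlapped. The 26 mitosis genes summed to 2784 ± 323 CPM in Tnc-led nuclei of I/R mice and 2602 ± 373 CPM in those of SBP mice. The Col6a6-led fibroblasts, the largest cluster, had 53.3 ± 9.96 CPM in sham, 168 ± 115 CPM in I/R and 95 ± 22.0 CPM in SBP. The Gfpt2-led fibroblasts had 83.9 ± 59.1, 142 ± 65.1 and 192 ± 92.3 CPM. With 6 sham nuclei the Tnc-led cluster cannot be compared between sham and I/R.

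**Figure D3:**
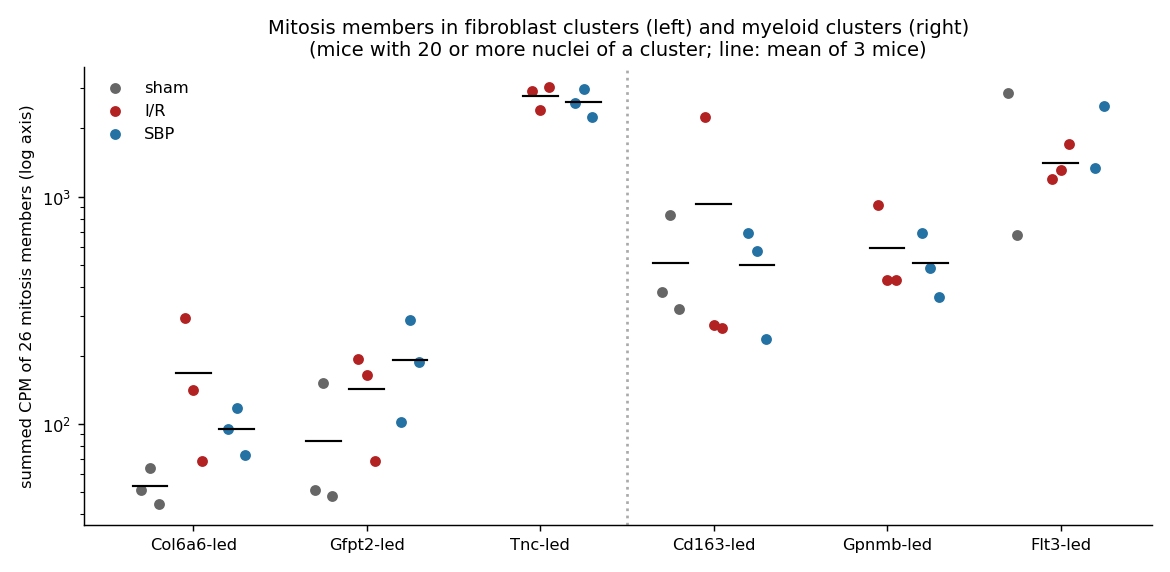
Summed CPM of the 26 mitosis genes in fibroblast clusters (left of the dotted line) and myeloid clusters (right), named by their leading gene, on a log axis, with a point for each mouse that had 20 or more nuclei and a line at the mean where all 3 mice did. The Tnc-led cluster, 2784 ± 323 CPM in I/R, has no sham point.

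When the fibroblasts were summed without the Tnc-led cluster, an alternative added after the data were seen, 24 members could be tested and 4 were called higher in I/R, where 3.87% of genes were called in either direction. The 4 were Knl1 (1.53 to 6.70 CPM, log2 fold change 1.56, limma adjusted p = 0.0388), Cenpe (0.949 to 7.28 CPM, 2.02, limma adjusted p = 0.0283), Prc1 (0.261 to 4.72 CPM, 2.15, limma adjusted p = 0.0173) and Kif20b, a kinesin of cytokinesis (1.04 to 5.91 CPM, 1.80, limma adjusted p = 0.0173). Mki67 (2.11, limma adjusted p = 0.0508) and Top2a (1.82, limma adjusted p = 0.118) did not pass. All 4 lay under the 3.64 CPM of the filter in every sham mouse and so entered through the injured mice, and 0 of the 11 members that reached it in all 3 sham mice were called by limma. The median over the 24 members was 0.90. No member was called by limma in SBP against sham, where 0.789% of genes were.

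**Figure D4:**
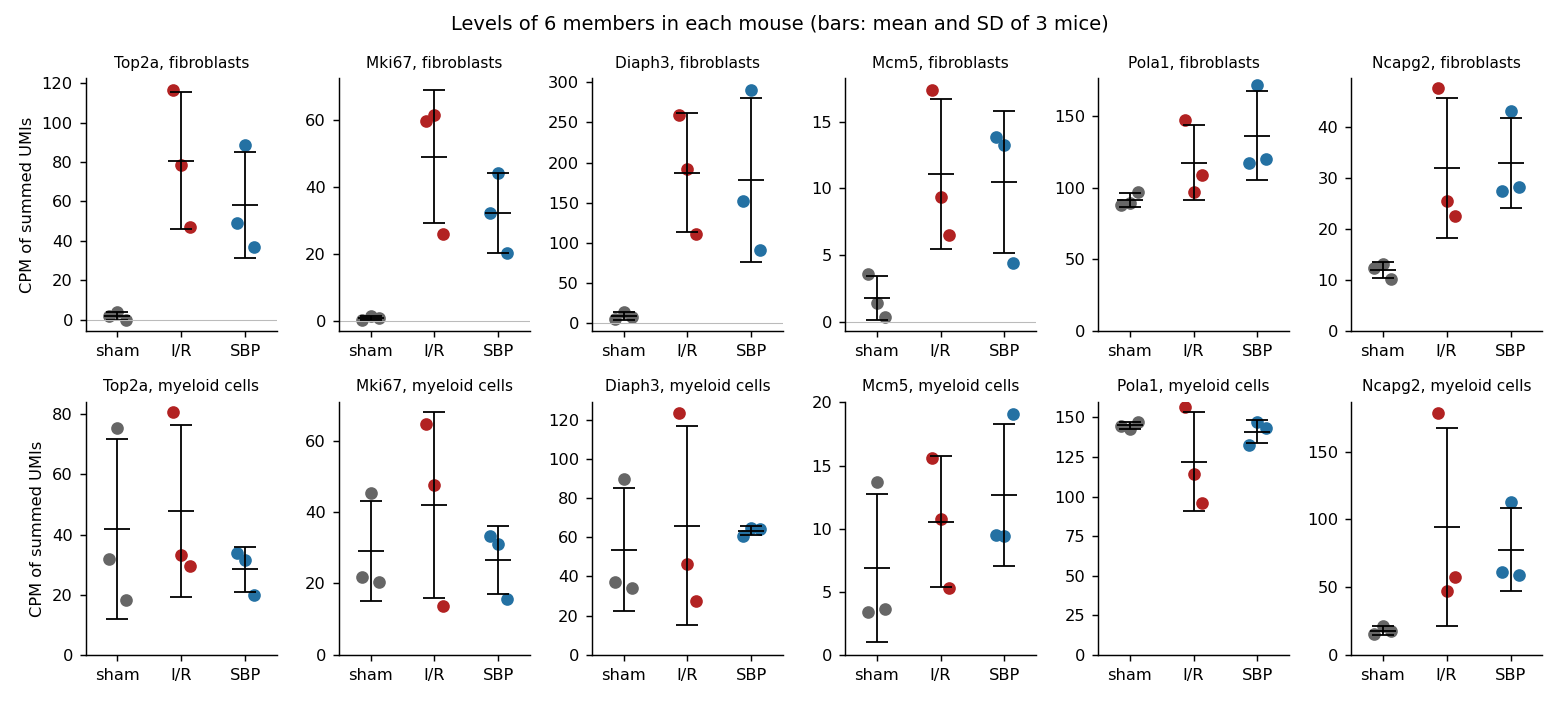
CPM of 6 members in each mouse in fibroblasts (top) and myeloid cells (bottom), with bars for the mean and SD of 3 mice. In sham fibroblasts Top2a and Mki67 are near 0 and Diaph3 is at 4.42 to 13.19 CPM, and all are well above these levels in each injured mouse. Pola1 is high in all groups, and in myeloid cells only Ncapg2 of these 6 was called.

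Nuclei with many mitosis genes were counted directly. UMIs of 5 or more of the 26 mitosis genes were present in 987 nuclei, of which 545 came from I/R mice, 368 from SBP mice and 74 from sham mice. The Tnc-led cluster held 572 of them (58.0%), which is 32.7% of its 1747 nuclei. Of its nuclei, 315 of 1017 (31.0%) met this in I/R and 256 of 724 (35.4%) in SBP. By mouse it was 33.4%, 24.3% and 42.1% in I/R and 31.5%, 42.7% and 28.3% in SBP, with the groups overlapping. In fibroblasts as a whole the share was 0.067%, 0.127% and 0% in the sham mice, 10.9%, 7.04% and 3.65% in the I/R mice, and 5.17%, 8.63% and 2.5% in the SBP mice. In myeloid cells it was 2.85%, 5.64% and 1.51% in sham, 6.82%, 2.28% and 1.84% in I/R, and 4.43%, 3.11% and 2.03% in SBP, with all groups overlapping. The Flt3-led dendritic-like cluster had 43 of 393 nuclei (10.9%), the neutrophil-like cluster 0 of 202 (which allows up to 1.49%), and B cells 0 of 338 (up to 0.888%). Cardiomyocytes had 0 of 3271 nuclei in I/R, which allows up to 0.0917%, 1 in SBP and 3 in sham. Endothelial cells had 16 of 13436 nuclei (0.119%). These limits and all intervals of UMI ratios cover counting error only.

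The Tnc-led nuclei with 5 or more mitosis genes had a median of 4489 UMIs, against 2516 for the rest of the cluster. A deeper nucleus has more chance to meet the count, and this count was not made at equal depth. Their fibroblast markers summed to 7005 CPM and their myeloid markers to 167 CPM, close to 6781 and 206 CPM in the rest of the cluster. In Gpnmb-led macrophage nuclei with 5 or more, myeloid markers summed to 4056 CPM and fibroblast markers to 527 CPM. Single fibroblast nuclei of I/R mice carried up to 34 of the 39 members.

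After each nucleus was thinned to 1000 UMIs, the share with 2 or more of the 39 members in fibroblasts was 2.44% ± 0.386 (SD, n = 3) for sham, 14.4% ± 6.49 for I/R and 10.4% ± 4.25 for SBP mice. In myeloid cells it was 9.81% ± 3.22, 13.8% ± 6.51 and 11.6% ± 2.51. In cardiomyocytes, which rarely divide, it was 0.891% ± 0.193, 1.59% ± 1.53 and 0.845% ± 0.306. There the I/R mice (0.482% to 3.34%) overlapped the sham mice (0.677% to 1.05%). The myeloid markers summed in sham mice to 45.3 to 54.4 CPM in cardiomyocytes and 104 to 121 CPM in fibroblasts, so the cardiomyocyte share does not give the level of free RNA in fibroblasts, which was not tested. In whole hearts the shares were 3.33% ± 0.772, 10.2% ± 5.52 and 7.14% ± 2.36, and 9.5%, 21.7% and 16.0% before thinning. Nuclei below 1000 UMIs, 2402 of the sham mice, 1739 of the I/R mice and 1779 of the SBP mice, were left out.

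In myeloid cells the members were present before injury, and few were called after it. The Cd163-led cluster was the largest of the myeloid class in every sham mouse and in I/R replicate 3, and the Gpnmb-led cluster was the largest in I/R replicates 1 and 2, with 362 to 758 nuclei of the first and 6 to 11 of the second in each sham mouse, and 363 to 502 and 462 to 1742 in each I/R mouse. I/R replicate 3 had 502 of the first and 462 of the second. Of 35 members tested, 1 (Ncapg2) was called higher in I/R and 0 lower, where 10% of 10891 genes were called higher and 7.38% lower, and 3 had an unadjusted p under 0.05, as did 32.0% of all genes. Rrm2, Ccna2, Ccnb1 and Cdk1 had too few UMIs to be tested. Mki67 had 21.88, 45.35 and 20.31 CPM in sham, 64.77, 47.62 and 13.63 CPM in I/R, and 33.19, 30.93 and 15.58 CPM in SBP. I/R replicate 1 was the highest, I/R replicate 2 lay just above sham replicate 2, and I/R replicate 3 was the lowest of the 9. The log2 fold change of 0.35 had a 95% interval of -0.90 to 1.60 (limma adjusted p = 0.709). Top2a had 31.98, 75.29 and 18.14 CPM in sham, 80.60, 33.37 and 29.47 CPM in I/R, and 33.98, 31.53 and 19.83 CPM in SBP (0.28, interval -0.89 to 1.44, limma adjusted p = 0.756). These intervals reach changes of over 1 on the log2 scale, so smaller changes were not detectable.

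Mcm5 in myeloid cells had 3.37, 13.69 and 3.63 CPM in sham, 15.62, 10.78 and 5.28 CPM in I/R, and 9.48, 9.40 and 19.12 CPM in SBP (0.68 in I/R, limma adjusted p = 0.391). The untested Rrm2 had 5.05, 6.84 and 2.18 CPM in sham, 7.71, 1.04 and 1.76 CPM in I/R, and 2.37, 2.73 and 4.25 CPM in SBP. Ccnb1 had 0, 11.98 and 2.90 CPM in sham, 8.33, 2.78 and 4.84 CPM in I/R, and 5.53, 1.52 and 2.12 CPM in SBP. Groups overlapped for all of these, and for Cdk1, which had 0, 5.13 and 2.18 CPM in sham, 9.79, 3.82 and 2.64 CPM in I/R, and 6.32, 7.58 and 2.83 CPM in SBP.

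Ncapg2, a subunit of the condensin II complex that folds chromosomes (chr12:116405402-116463731, plus strand, overlapped by no annotated gene), was the exception. It had 15.15, 21.39 and 17.41 CPM in sham myeloid cells, 178.28, 47.27 and 57.62 CPM in I/R, and 60.85, 112.79 and 58.77 CPM in SBP. All 6 injured mice were above all sham mice, and I/R replicate 1 was far above the other two. The log2 fold change was 2.08 ± 0.45 in I/R (limma adjusted p = 0.0123) and 1.99 in SBP (limma adjusted p = 0.0196), where Ncapg2 was again the single member called higher, against 6.94% of genes. Without I/R replicate 1 it was 1.50 (limma adjusted p = 0.0034). Without sham replicate 1 the I/R call was lost (limma adjusted p = 0.0517), and the SBP call was lost without each sham mouse and without SBP replicate 2. Kif23 was also called, lower, without I/R replicate 1, and Brca1 was called higher without I/R replicate 3. For the I/R change of Ncapg2, the adjusted p ran over all alternatives tried from 0.0034 to 0.100.

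Ncapg2 also kept other company in myeloid nuclei. Of 1260 myeloid nuclei with a UMI of Ncapg2, 14.4% had 3 or more other mitosis genes, the lowest share of all members there. For Mki67 this share was 59.9%, for Top2a 67.8%, for Ncapg 76.2% and for Hmmr, a spindle protein, 83.3%. In fibroblasts the share for Ncapg2 was 44.0%, against 67.0% for Mki67, 78.9% for Top2a, 90.5% for Hmmr and 91.9% for Ncapg. Among myeloid nuclei without a UMI of Ncapg2 it was 3.31%. In Cd163-led nuclei, Ncapg2 stood at 16.7, 22.6 and 18.3 CPM in the sham mice, 96.3, 24.8 and 14 CPM in the I/R mice, and 29.4, 31.5 and 23.4 CPM in the SBP mice. There I/R replicate 1 was far above every other mouse, and of the other I/R mice one lay just above the sham range and one below it. The SBP mice all lay above the sham range, the lowest of them narrowly (23.4 against 22.6 CPM). In Gpnmb-led nuclei it stood at 200.045, 52.9 and 99.3 CPM in I/R and 99.2, 139 and 91.7 CPM in SBP, again with I/R replicate 1 the highest. Pola1 and Ezh2 also had low shares, with 17.7% and 22.3% in myeloid cells and 16.3% and 21.8% in fibroblasts. Depth is shared by all genes of a nucleus, and these shares are descriptions with no test.

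**Figure D5:**
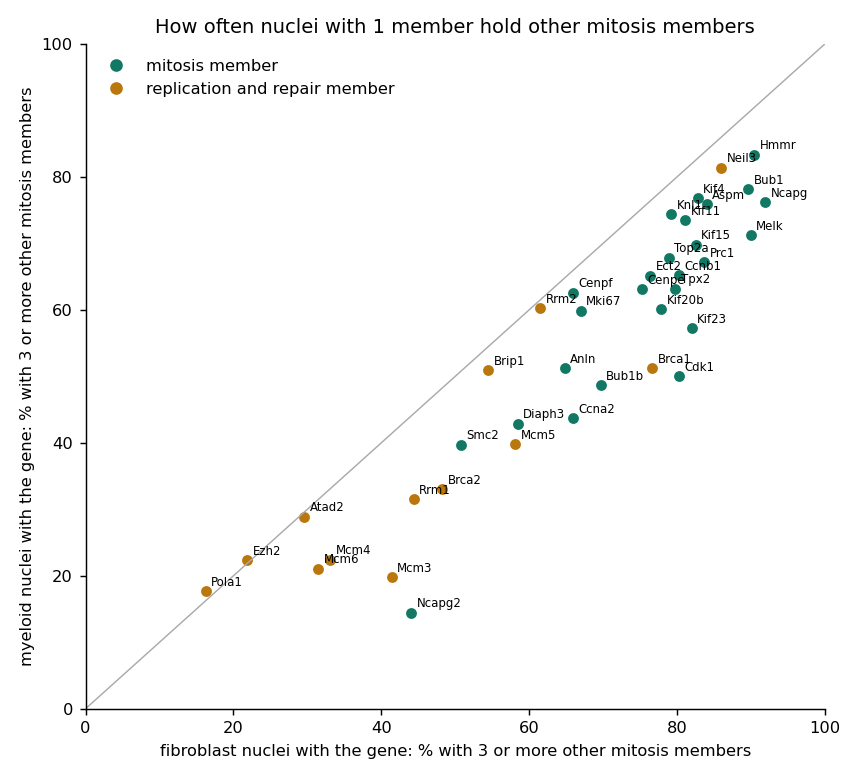
For each member, the percent of nuclei with its UMI that also had UMIs of 3 or more other mitosis genes, in fibroblasts (horizontal axis) and in myeloid cells (vertical axis), with colours for mitosis and for replication and repair members and a line where both are equal. Ncapg2 lies far below the line, at 44.0% in fibroblasts and 14.4% in myeloid cells.

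Markers moved in the myeloid sums too. The neutrophil markers summed to 97.1 to 134 CPM in sham and 399 to 885 CPM in I/R, with 3 of the 4 tested called higher. The dendritic markers summed to 312 to 392 CPM in sham, 53.5 to 180 CPM in I/R and 92.6 to 172 CPM in SBP, with Clec9a, Ciita and Zbtb46 called lower. The cardiomyocyte markers summed to 5671 to 6660 CPM in sham and 1697 to 2748 CPM in I/R. The B cell markers summed to 620 to 706 CPM in sham, 48.6 to 149 CPM in I/R and 168 to 406 CPM in SBP, and Bank1, the single one tested, was called lower. The part of these cells in the myeloid values was not tested.

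The difference between cell types was tested within mice. The I/R change of myeloid cells minus that of fibroblasts was called lower for 26 of 35 members tested and higher for 0, where 3.24% of 10504 genes were called lower and 3.37% higher. The median difference was -3.42 on the log2 scale, and it was negative for 34 of the 35. Of the 35, 23 did not reach the filter in all 3 sham mice in fibroblasts and were tested through the injured mice, and 22 of these 23 were called. Of the other 12, 4 were called lower (Mcm6, Cenpf, Brca2 and Diaph3), with a median difference of -1.18. Ncapg2 was the exception, at 0.81 (limma adjusted p = 0.107). Without the Tnc-led cluster, 5 were called. Of all genes, 6.61% were. The 5 were Ncapg2, higher in myeloid cells by 1.72 (limma adjusted p = 0.0143), and Prc1, Mki67 (-1.76), Anln and Top2a (-1.54), all lower and all among the 23. Against endothelial cells, 1 of 24 members was called lower, Top2a at -1.82 (limma adjusted p = 0.0390), where 0.963% of genes were, and Top2a did not reach the filter in sham endothelial cells. That call was lost without each of 7 mice, all but sham replicate 1 and I/R replicate 1, and with the replicate number as a block.

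In endothelial cells few members were called, but most changes were positive. Of 24 members tested, 4 were called higher in I/R, where 1.83% of 12216 genes were. The log2 fold change was positive for 22 of the 24, with a median of 0.54 against -0.03 over all genes tested. For 9 members every I/R mouse stood above every sham mouse. An unadjusted p under 0.05 (limma) was found for 9 members, and for 17.6% of all genes. Of the 24, 11 reached the filter in all 3 sham mice, and 1 of these (Ncapg2) was called, with a median log2 fold change of 0.27 over the 11. The other 3 called, Cenpe, Top2a and Mki67, were below the 4.11 CPM of the filter in every sham mouse and entered through the injured mice. Cenpe had 0.56, 1.27 and 0.83 CPM in sham, 8.67, 7.83 and 5.37 CPM in I/R, and 3.74, 3.62 and 1.23 CPM in SBP (2.13 ± 0.40 in I/R, limma adjusted p = 0.0166). Top2a had 2.82, 2.23 and 0.42 CPM in sham, 13.69, 10.87 and 6.81 CPM in I/R, and 9.36, 5.43 and 4.10 CPM in SBP (2.10 ± 0.43, limma adjusted p = 0.0232). Mki67 had 3.38, 2.55 and 0.83 CPM in sham, 17.79, 11.31 and 5.37 CPM in I/R, and 7.11, 7.70 and 6.96 CPM in SBP (1.90 ± 0.42, limma adjusted p = 0.0309). In all 3 the I/R mice stood above the sham mice. Ncapg2 had a log2 fold change of 1.40 ± 0.29 (limma adjusted p = 0.0220), with 7.32, 7.64 and 5.41 CPM in sham and 31.02, 16.53 and 13.97 CPM in I/R. None of the 4 was called without sham replicate 2, without sham replicate 3 or without I/R replicate 2, and 1 was called without I/R replicate 1. Of 133 endothelial nuclei with a UMI of Mki67, 9.02% had 3 or more other mitosis genes, against 67.0% in fibroblasts. Among nuclei without it the shares were 0.308% and 2.57%. The nuclei with Mki67 had a median of 1329 UMIs in endothelial cells and 3644 in fibroblasts, so the 2 shares differ in depth. The myeloid markers summed to 176 to 225 CPM in sham endothelial cells and 370 to 519 CPM in I/R, and the neutrophil markers to 11.9 to 42.6 and 108 to 390 CPM. Cardiomyocyte markers went the other way, at 7163 to 8889 CPM in sham and 2845 to 5038 CPM in I/R. So did B cell markers, at 29.2 to 53.1 and 2.98 to 18.6 CPM. Their part in these values was not tested. SBP against sham gave 0 called of 24 (limma), where 0.704% of genes were called higher, and 7 at an unadjusted p under 0.05, where 15.4% of genes were.

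In cardiomyocytes 18 members could be tested and 0 were called by limma in I/R against sham, where 0.651% of 12912 genes were called higher, and 5 had an unadjusted p under 0.05, as did 14.1% of genes. The Gm17428-led cardiomyocyte cluster had 3774 nuclei in sham, 887 in I/R (836 of them from replicate 1) and 336 in SBP. The Fstl4-led cluster had 475, 2384 and 2699. The part of this shift in the cardiomyocyte values was not tested. Mki67 stood at 0.98 ± 0.42 CPM in sham, 3.81 ± 1.77 CPM in I/R and 1.47 ± 0.55 CPM in SBP (SD, n = 3; log2 fold change in I/R 1.25, limma adjusted p = 0.117). Cenpf went the other way, with 259 of the 699 mitosis UMIs in sham, 91 UMIs in I/R and 61 in SBP, and was not called. The log2 fold changes of the 18 in I/R ran from -1.44 to 1.30, and 11 were positive. SBP against sham gave 0 called as well (limma), where 0.124% of genes were called higher, and 2 had an unadjusted p under 0.05, as did 13.3% of genes. Without I/R replicate 1, Anln was called higher and Cenpf lower in I/R, and without I/R replicate 3 Diaph3 was called higher. Of cardiomyocyte nuclei with a UMI of Mki67, 3.67% had 3 or more other mitosis genes, against 0.287% of those without.

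SBP hearts and I/R hearts were compared directly, to ask whether the pill altered these genes after injury. No member was called by limma in any of the 5 sums. The number at an unadjusted p under 0.05 was 0 of 39 in whole hearts, 0 of 39 in fibroblasts, 0 of 35 in myeloid cells, 3 of 24 in endothelial cells and 2 of 18 in cardiomyocytes. Of all genes the shares at such a p were 4.48%, 3.54%, 3.79%, 5.17% and 2.1%, and 0% were called in each sum. The median log2 difference of the members was -0.31 in whole hearts, -0.28 in fibroblasts and -0.10 in myeloid cells. In whole hearts Mki67 differed by -0.65 (95% interval -1.59 to 0.29), Top2a by -0.53 (-1.58 to 0.52) and Cdk1 by -0.09 (-0.88 to 0.69). In fibroblasts Mki67 differed by -0.56 (-1.37 to 0.25), Top2a by -0.47 (-1.75 to 0.82), Diaph3 by -0.16 (-1.25 to 0.94) and Pola1 by 0.21 (-0.20 to 0.62). In myeloid cells Ncapg2 differed by -0.09 (-1.09 to 0.91). The intervals hold both no difference and a fall of more than 1 on the log2 scale for Mki67 and Top2a, so 3 mice a group do not show that the groups are alike. Against sham, SBP fibroblasts had 36 members called higher, where 3.81% of genes were, all but Pola1 (limma adjusted p = 0.123), Mcm4 (0.192) and Ccna2 (0.0807). Of the 12 members that reached the filter in all 3 sham mice 10 were called, and the other 26 calls were of members tested through the injured mice. With voom weights 16 were called in place of 36. Both injured groups were set against the same sham mice.

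Other cell cycle genes were taken from lists of known function. In I/R fibroblasts, where 6.99% of all genes were called higher, 34 of 51 other replication genes tested were called higher and 0 lower, with Clspn, which links forks to the checkpoint, at a log2 fold change of 2.84 and the exonuclease gene Exo1 listed at 0 in all sham mice and at 8.90 ± 5.26 CPM in I/R. Of other mitosis genes, 61 of 65 were called higher, with the spindle kinesin Kifc1 at 3.81. Of transcription factors of the cycle, 9 of 19 were called higher, led by Mybl2 (2.32), E2f7 (2.31) and Foxm1 (2.16). Most of these calls were of genes tested through the injured mice. Of the genes that reached the filter in all 3 sham mice, 10 of 22 replication genes, 12 of 14 mitosis genes and 3 of 13 transcription factors were called higher, and none of those named here was among them. Without the Tnc-led cluster, 1 of 30, 0 of 20 and 0 of 14 were called higher by limma. In whole hearts the counts were 17 of 52, 46 of 66 and 4 of 19, against 5.98% of all genes, and 12 of 44, 19 of 35 and 3 of 18 among genes that reached the filter in all 3 sham mice. In myeloid cells they were 2 of 40, 1 of 40 and 1 of 18 (Tfdp1), each a share below the 10% of all genes called higher. In endothelial cells 0 of 32, 0 of 17 and 0 of 14 were called by limma, against 1.83% of all genes.

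Of G1 cyclins and their kinases, 1 of 8 tested was called higher (Ccne2) and 1 lower in I/R fibroblasts, 0 of 7 higher and 2 lower in myeloid cells, 0 of 9 higher and 2 lower in whole hearts, and 0 of 8 higher and 1 lower in endothelial cells. Of cell cycle inhibitors, 2 of 11 were called higher and 0 lower in fibroblasts, 1 of 8 higher and 1 lower in myeloid cells, 2 of 12 higher and 1 lower in whole hearts, 0 of 10 higher and 2 lower in endothelial cells, and 1 of 11 higher in cardiomyocytes. Of all genes, 6.99% were called higher and 4.6% lower in fibroblasts, 10% and 7.38% in myeloid cells, 5.98% and 5.39% in whole hearts and 1.83% and 1.39% in endothelial cells, and 0.651% were called higher in cardiomyocytes. Ccnd1, the cyclin that starts the cycle, was called lower in I/R fibroblasts (39.7 ± 4.97 to 12.7 ± 0.971 CPM, log2 fold change -1.57, limma adjusted p = 0.000376), lower in myeloid cells (-1.55) and lower in whole hearts (-0.93). Ccnd2, its relative, was called lower in myeloid cells (-1.44), endothelial cells (-1.07) and whole hearts (-0.84). Cdkn1a, which encodes the inhibitor p21, was called higher in fibroblasts (6.46 to 33.7 CPM, 2.25, limma adjusted p = 0.0300), in cardiomyocytes (2.62 to 21.7 CPM, 2.57, limma adjusted p = 0.0151) and in whole hearts (2.02). In fibroblasts Cdkn1a and Ccne2 did not reach the filter in all 3 sham mice. The growth inhibitor Btg1 was called higher in fibroblasts (1.25), myeloid cells (1.10) and whole hearts (1.11), and Ccng1, a p53 target, lower in whole hearts (-1.22), myeloid cells (-0.98) and endothelial cells (-1.0). No gene of these lists was called in SBP against I/R.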

How the data were processed

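sNuc-seq of 9 mouse hearts, 1 sample per mouse and 3 per group, was analysed from the gene tables the authors deposited. Per the study's methods, the authors brought the samples to a similar read depth, counted UMIs, removed nuclei with 200 genes or fewer or with 10% or more mitochondrial UMIs, and dropped mitochondrial genes. The submitters' processing notes name Cell Ranger 4.0, STAR, Seurat 3.2.0 and GRCm38. Each deposited value is the natural log the authors took, ln(1 + 10000 × UMIs of the gene / UMIs of the nucleus). The study states more nuclei than the 49171 in the tables, and the fewest genes in a nucleus were 405, so the stated gene filter removed none of these.

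UMIs were recovered by undoing the log and dividing by the smallest value of each nucleus, and at least 99.999% of the values of every sample came out within 0.1 of a whole number. The study tested a count model. The deposited unit is not a count, so limma on log values was the main test and no count model was run. Nuclei were clustered without 157 cell cycle genes, by the Leiden method at resolution 0.8 over 20 nearest neighbours in 30 principal components of 2000 variable genes (Python 3.11.15, scanpy 1.11.5, anndata 0.12.19, numpy 2.4.6, scipy 1.17.1, pandas 2.3.3, scikit-learn 1.9.0, igraph 0.11.9). A resolution of 0.3 had merged B cells with dendritic nuclei and was replaced with the members' levels in view. The marker score that names clusters was also replaced after the data were seen, because its first form left 4 endothelial clusters unnamed. The caller of doublets marked 85 nuclei (0.173%) and was taken not to have worked. They were removed, and an alternative removed the 2168 highest-scoring nuclei. Because types were rebuilt here, they may differ from those of the study.

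UMIs were summed per mouse over the whole heart and over 4 cell types, scaled by TMM factors and tested as log2(CPM + 1) with limma 3.58.1 (R 4.3.3) with a trend and robust variances, all 9 samples in the fit and group as the only term. Fold changes on this scale understate the change of low genes. Sums over several genes are CPM of library totals. A gene entered with 15 UMIs in all and, in 3 samples, the CPM that 10 UMIs give in the median library. An exact permutation test of 3 mice against 3 cannot go below 0.1 and was not used. Tests were tried on simulated data first. Same-numbered mice were checked for pairing by the correlation of their deviations. In fibroblasts of SBP and sham mice all 3 correlations exceeded 0.1 (0.119 to 0.129), and the blocked fit called 34 members in place of 36. In the other 14 checks at least 1 pair did not exceed it.

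The members and all lists were chosen with earlier results of these data known. Named were Mki67, Top2a, Cdk1, Ccnb1, Rrm2 and Mcm5 in whole hearts and myeloid cells, the 3 members with the largest called change in each sum and direction, and at most 3 called genes per other list and direction. A gene that this rule would name is not reported here. Prc1, Knl1, Mki67, Pola1 and others in fibroblasts were added after their values were seen. Promoters are RefSeq windows and gene positions GENCODE on GRCm38. Alternatives changed the pseudocount, scaling, filter, samples in the fit, weights, block, doublets, naming and thinning, and left out each mouse.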

Additional observations from a re-analysis of the deposited data

Results flagged for a closer look

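The I/R change of 26 members differed between myeloid cells and fibroblasts by the limma test of the difference, all smaller in myeloid cells. The difference of log2 fold changes was -4.26 for Mki67, -4.73 for Top2a, -4.66 for Prc1 and -4.49 for Knl1. These 4 did not reach the filter on low values in all 3 sham mice in fibroblasts, like 22 of the 26, and were tested through the injured mice. Against endothelial cells 1 member differed, Top2a at -1.82.

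The mean summed level of the 26 mitosis genes was also above the highest sham mouse in groups of nuclei that were not among the 5 sums tested. T cells had a mean of 379.8 CPM in I/R and 237.6 CPM in SBP, where the highest sham mouse had 172.6 CPM, and an I/R mouse at 165.9 CPM and an SBP mouse at 105.4 CPM lay below it. B cells had 288.8 CPM in SBP, where the highest sham mouse had 163.0 CPM, from 21 to 34 nuclei a mouse. The unnamed Cadm2-led nuclei had 695.1 CPM in I/R, where the highest sham mouse had 246.4 CPM. The I/R mice had 1664, 218.1 and 203.7 CPM, so replicate 1 carried the mean and the others lay below that sham mouse. Of the 26 such nuclei of I/R replicate 1, 9 had 5 or more mitosis genes. None of these differences was tested. No test of outlying samples was run.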

How the results depend on the processing

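No direction reversed under any alternative. Members called higher in whole hearts in SBP against sham (9) numbered 1 with log2(CPM + 5), 4 with library totals, 3 without a filter, 24 with the 6 samples compared and 1 with voom weights. In myeloid cells Ncapg2 was the call in I/R against sham. The replicate block gave 2 (Brca1 added) and voom 0. In SBP against sham the 6 samples gave 2 (Kif23, lower), and voom and naming by marker level gave 0 each. In fibroblasts, voom gave 16 of 36 in SBP against sham. Without the Tnc-led cluster, chosen after seeing the data, 4 members were called in I/R (38 with it), 0 in SBP against sham (36 with it), and 5 in myeloid cells minus fibroblasts (26 with it), of which 4 were among the 26 and Ncapg2 was not. Clusters at resolution 0.3, also added then, kept every count within 1.5 times. Endothelial calls (4) were 2 with 6 samples, 2 with voom, 2 without the highest-scoring nuclei and 1 by marker level. Cardiomyocytes gained 1 call (Cenpf, lower) in SBP against sham with 6 samples. The single call of myeloid minus endothelial cells became 2 with log2(CPM + 0.5) and 0 with log2(CPM + 5), without a filter, with 6 samples, with the replicate block, with marked doublets kept, without the highest-scoring nuclei and by marker level. The block changed no other count by over 1.5 times, and same-numbered mice otherwise share only a number. Without thinning, the I/R share with 2 or more members exceeded sham by 12.2 percentage points in whole hearts (6.92 when thinned) and 10.4 in myeloid cells (3.97 when thinned). With 3 or more members the differences were 3.87 and 0.824, and thinning to 500 UMIs gave 4.02 and 1.06.

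Leaving out each mouse gave 4 to 31 calls in whole hearts in I/R and 0 to 24 in SBP against sham, 0 to 2 and 0 to 2 in myeloid cells, 31 to 38 and 24 to 36 in fibroblasts, 0 to 4 in endothelial cells in I/R, 0 to 2 and 0 to 1 in cardiomyocytes, 21 to 26 for myeloid minus fibroblasts and 0 to 2 for myeloid minus endothelial cells. SBP against I/R stayed at 0 throughout. Apart from the fits without the Tnc-led cluster, the share of all genes called under each alternative or without each mouse is not given. A move of these counts therefore need not be particular to the members, and why they moved was not tested.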
